A study of Mus musculus with 10 samples.

Results

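The genes described here are 46 members of the TGFb, BMP and activin pathway, taken by symbol from the deposited gene table, which holds 40503 genes. They were chosen for their known roles as ligands, latent ligand binding proteins, receptors, SMADs, extracellular antagonists and SMAD-controlled regulators. The rule names genes and uses no measured value, but the list was drawn up with earlier results of these data known. RNA-seq was done on gonadal white adipose tissue, the fat beside the ovaries and uterus, from 12-week-old female C57BL/6 mice. Each of 10 animals gave 1 library, 5 labelled KO and 5 labelled WT, and libraries are named here by group and animal number (KO 1, KO 4, KO 7, KO 8 and KO 17, against WT 2, WT 9, WT 19, WT 86 and WT 89). The KO animals carried Med19-iAKO, an inducible deletion that the series title calls adipose-specific. They received tamoxifen at 100 mg/kg for 5 days and the tissue was taken 14 days later. The Cre driver and any treatment of the WT animals are not stated in the labels. Med19 is a part of Mediator, through which transcription factors act on RNA polymerase II.

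Ligands of this family bind a type II receptor kinase, which activates a type I receptor kinase. Type I receptors for TGFb and activins act through Smad2 and Smad3, and those for BMPs act through Smad1, Smad5 and Smad9, with Smad4 as the shared partner. In white fat TGFb is known for restraining adipocyte differentiation, BMP4 and BMP7 for promoting it, and ACVR1C (ALK7) for relaying activin B and GDF3 signals in adipocytes.

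Reads assigned to genes numbered 14441275 to 20179236 per library. Med19 RNA was at 6.79 ± 0.85 RPKM (reads scaled to gene length and library size) in the KO group and 6.70 ± 0.89 RPKM in the WT group (SD, n = 5 each; 2-sided exact permutation p = 0.881), so its level did not check the labels, and every direction below rests on them. Over all 17038 genes tested the median log2 change, KO minus WT, was 0.09, and 681 genes were called higher and 332 lower. After median-ratio scaling between libraries the median was 0.01, with 103 higher and 417 lower. The labels give no batch. The numbers in the library titles are taken as animal numbers, and p-values set the difference between groups against the spread within groups of these 10 libraries.

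Among the 46 genes the type I receptor gene Acvr1c had the largest change, a fall from a mean of 15.1 RPKM in WT to 7.70 RPKM in the KO-labelled libraries. Tgfb3, Id2 and Skil rose by 0.30 to 0.45 on the log2 scale in the values as deposited, calls that were lost after scaling between libraries. Of the 46 genes, 42 passed the filter of at least 0.5 RPKM in at least 5 of 10 libraries and were tested. There were 3 called higher, Tgfb3, Id2 and Skil, where 4.00% of all tested genes were, and 1 was called lower, Acvr1c, where 1.95% were (limma, Benjamini-Hochberg adjusted p under 0.05). An absolute log2 change of at least 0.5 was seen for 1 of the 42 (Acvr1c), where 7.14% of all tested genes had one. The median change was 0.09, the same as over all tested genes, and 29 of 42 were above 0, beside 68.7% of all tested genes. At an unadjusted p under 0.05 there were 12 of 42, where 24.7% of all genes were. All KO-labelled libraries lay beyond all WT libraries upward for 3 members (Skil, Tgfbr1 and Tgfbr2; 6.96% of all genes) and downward for 1 (Acvr1c; 2.15%). These shares do not set the pathway apart from other genes.

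**Figure D1:**
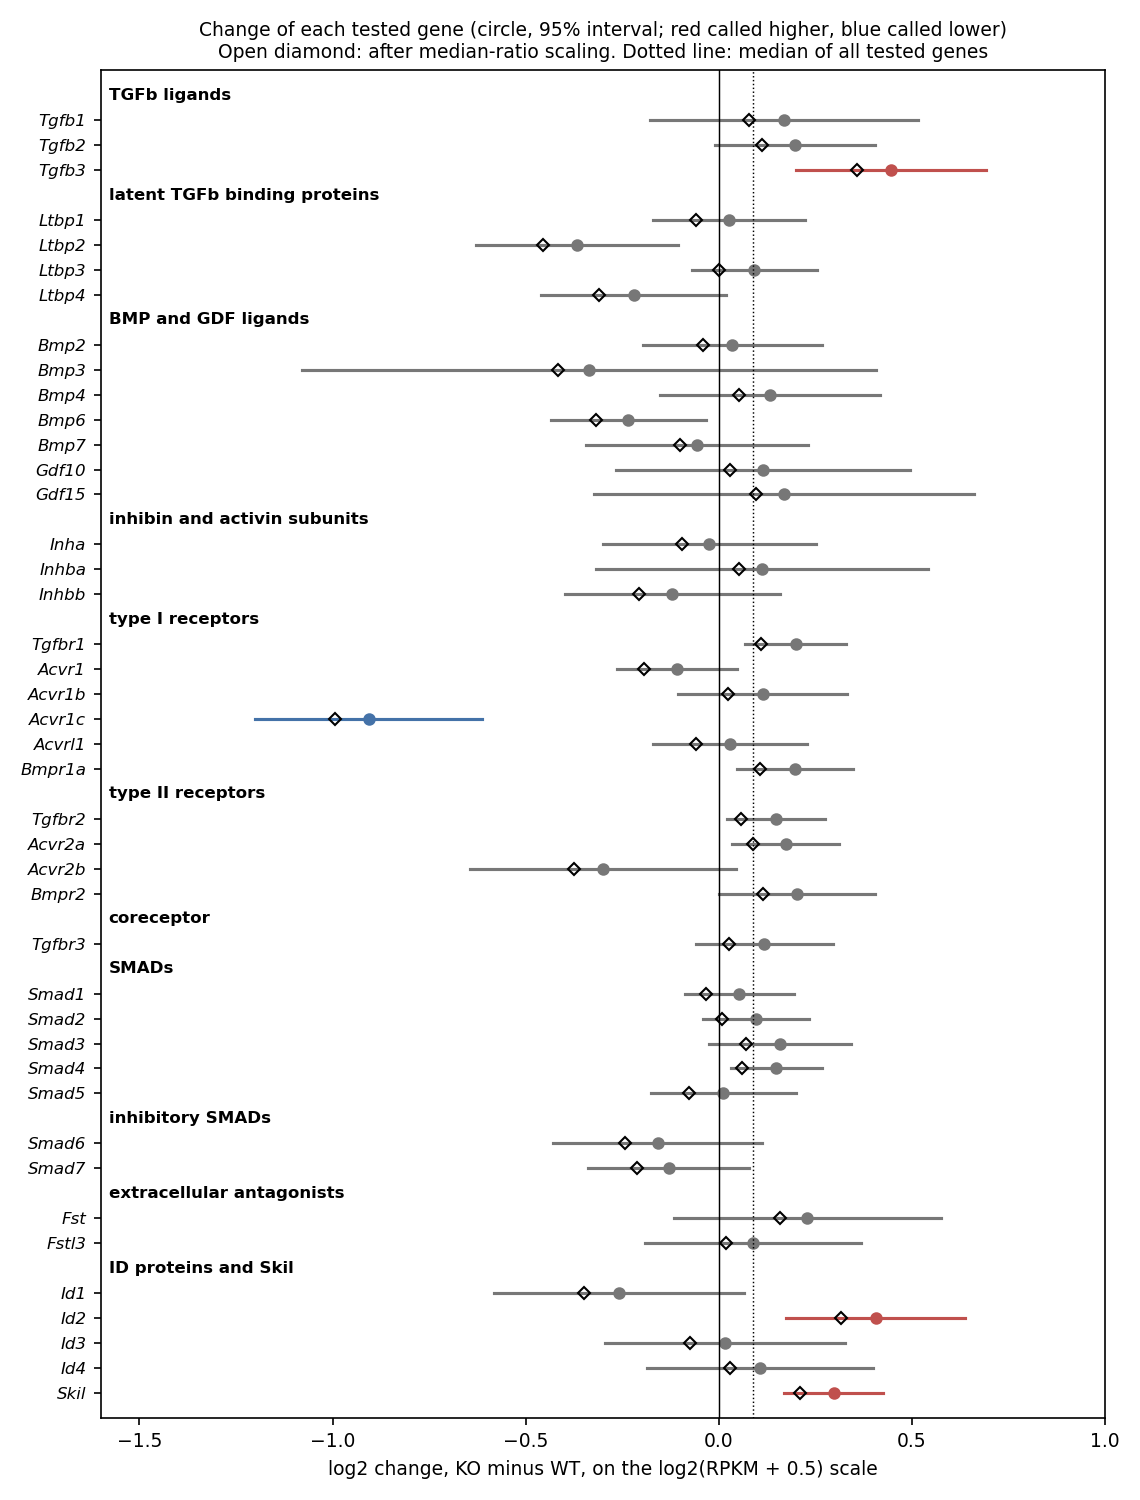
Log2 change, KO minus WT on the log2(RPKM + 0.5) scale, of the 42 tested genes by role, with the 95% interval from limma. Open diamonds give the change after median-ratio scaling and the dotted line the median of all tested genes (0.09). Acvr1c, at -0.91, lies apart from the other genes, whose circles run from -0.37 to 0.45.

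Acvr1c encodes the type I receptor ALK7, which is known in fat cells for restraining lipolysis. It was at 7.48, 6.99, 9.04, 7.40 and 7.59 RPKM in KO 1, KO 4, KO 7, KO 8 and KO 17. In WT 2, WT 9, WT 19, WT 86 and WT 89 it was at 12.5, 14.6, 12.8, 21.2 and 14.4 RPKM. All 5 KO-labelled libraries lay below all 5 WT libraries, as for 2.15% of all tested genes, and WT 86 was the highest. Its mean was 7.70 ± 0.78 RPKM against 15.1 ± 3.5 RPKM (SD, n = 5 each), a log2 change of -0.91 (SE 0.13, 95% interval -1.20 to -0.61, limma adjusted p = 0.00425). Each library held 1054 to 2849 reads of the gene. The call held with each of the 10 libraries left out in turn (log2 change -0.97 to -0.78), with median-ratio scaling (-0.99) and without WT 86 and WT 89 (-0.75). In bulk tissue, fewer cells of a type and less RNA per cell cannot be told apart.

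**Figure D2:**
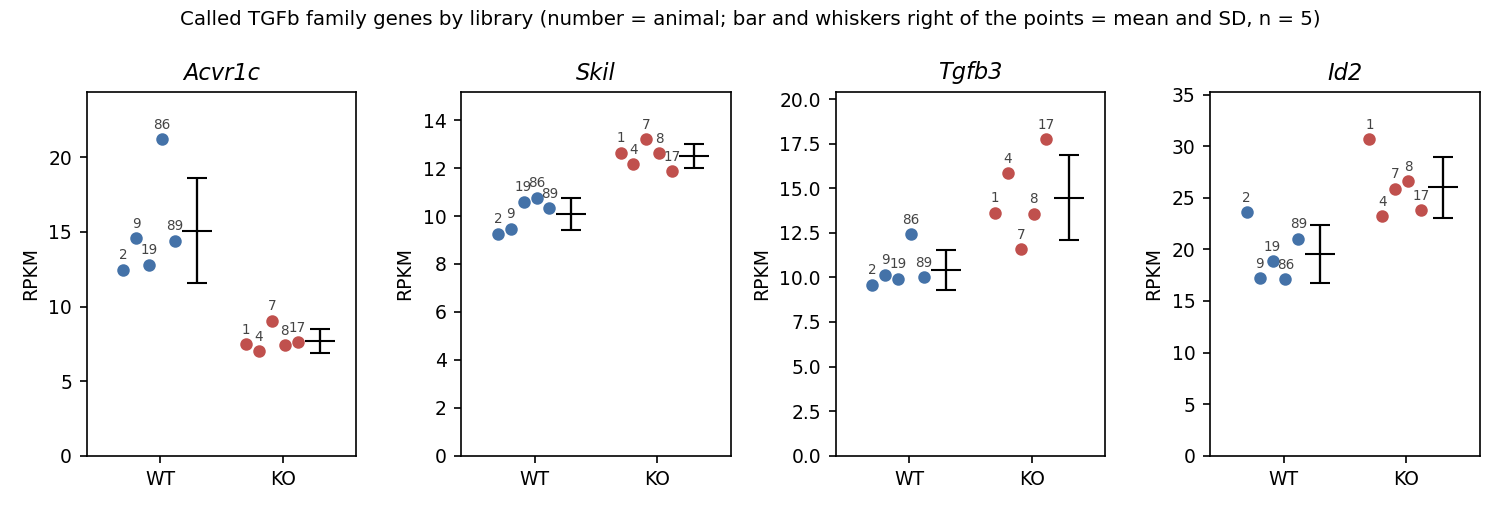
RPKM of the 4 called genes in each library, with the animal number above each point and the mean and SD (n = 5) to the right. The groups do not overlap for Acvr1c (KO at most 9.04, WT at least 12.5 RPKM) and Skil, and they overlap for Tgfb3 and Id2.

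Markers of adipocytes fell together with Acvr1c. Of 8 adipocyte markers 7 were called lower (1.95% of all tested genes were), with log2 changes from -2.08 (Cidec) to -0.77 (Fabp4), and Lep, at -1.01, was not. Their summed level was 3041 to 3682 RPKM in the KO-labelled group and 5379 to 8112 RPKM in WT. Most of it was Fabp4, at 2481 to 2954 RPKM and 3660 to 5795 RPKM. Adipoq, which encodes adiponectin, changed by -1.21 and Pparg, the main transcription factor of adipocyte differentiation, by -1.11. Acvr1c per 1000 RPKM of Adipoq was 25.6 ± 5.0 in the KO-labelled and 21.1 ± 3.5 in the WT libraries (SD, n = 5 each), ranging from 19.3 to 31.4 and from 17.9 to 27.0. Relative to Fabp4 it was 2.86 ± 0.21 against 3.28 ± 0.55 per 1000 RPKM, with the lower mean in the KO-labelled libraries. The mean ratio was higher there for each of the other 7 markers, and the groups overlapped for all but Lipe and Cidec. The part of adipocyte content in the fall of Acvr1c was not tested.

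Among the markers of other cells, 3 of 6 neutrophil markers were called higher (S100a9, Retnlg and Cxcr2), where 4.00% of all tested genes were. With 1 library left out in turn, S100a9 was called in 10 of 10 runs, Retnlg in 3 and Cxcr2 in 1. All 6 neutrophil markers summed to 428 to 800 RPKM in the KO-labelled libraries against 172 to 355 RPKM in WT, most of it S100a8 and S100a9. After median-ratio scaling S100a9 was the 1 of all higher marker calls that held. Lum was the 1 fibroblast and progenitor marker of 10 called higher. The list summed to 1627 to 1912 RPKM against 1332 to 1612 RPKM, with Dcn the largest part. Kdr (endothelial cells), Mcam and Cspg4 (pericytes) were called lower, 1 of 8 and 2 of 8 markers, where 1.95% of all tested genes were. Macrophage markers had 0 of 8 called, but all 8 had a log2 change above 0, with a median of 0.37 beside 0.09 over all tested genes. After median-ratio scaling these medians were 0.28 and 0.01. The largest change was that of Cd14 (0.55, limma adjusted p = 0.0549). Macrophage markers summed to 3927 to 5021 RPKM in the KO-labelled libraries and 3291 to 4373 RPKM in WT, mostly Lyz2, which changed by 0.15. T cell (5 tested), B cell (4), mesothelial (8), ovarian (1) and mammary or uterine epithelial (2) markers had 0 called. The 8 ovarian markers summed to 10.6 to 17.03 RPKM in the KO group and 11.3 to 13.6 RPKM in WT, nearly all of it Star (means 12.6 and 11.3 RPKM). Amh had means of 0.384 and 0.420 RPKM and Cyp17a1 of 0.195 and 0.186 RPKM, and Fshr and Cyp19a1 were at 0 in all WT libraries with KO means of 0.0054 and 0.0055 RPKM. The part of any of these in the values below was not tested.

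The sequence before the first of 2 RefSeq starts of Acvr1c is shown because this gene carries the main difference. It is the portion, outside GENCODE M21 exons, of the 250 bases before the RefSeq start (GRCm38.p6, minus strand, written 5′ to 3′), at chr2:58357896-58358008.
Acvr1c: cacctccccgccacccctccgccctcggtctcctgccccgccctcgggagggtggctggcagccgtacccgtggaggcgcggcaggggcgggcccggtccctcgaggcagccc
The whole 250-base window has a GC content of 79.6% and 32 CpG, where the medians over 32851 RefSeq windows are 52.4% and 6. The search covered 4 motifs on both strands, none of which contains another. They were GGCGCC, known from SMAD-bound ID gene promoters, the SMAD motifs GTCTAGAC and CAGAC, and the DR1 repeat of AGGTCA with 1 base between, which PPARg with its RXR partner binds. The window before the other start (chr2:58324808-58325057, not printed) has a GC content of 49.6% and 2 CpG, below those medians. None of the motifs matched in either window. RefSeq windows were found for 33 of the 46 genes, 43 windows in all. GGCGCC was in 10 of the 43 and in 9.59% of all windows, CAGAC in 20 of 43 and in 42.2%, GTCTAGAC in 0 of 43 and in 0.167%, and DR1 in 0 of 43 and in 0.0335%.

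Both of the better-covered Acvr1c transcripts fell, one with and one without exon 3, the coding exon known for its transmembrane segment. Exon 3 spans chr2:58295926-58296165 (minus strand, GRCm38, GENCODE M21) and holds 240 coding bases, and without it the coding length is 1239 in place of 1479 bases. The junctions after exon 2 are shown because they separate the 2 transcripts. Lower case gives the last 30 bases of exon 2 and capitals the first 30 bases of the next exon, which starts exon 3 in ENSMUST00000028178 and skips to the exon after it in ENSMUST00000112608.
ENSMUST00000028178: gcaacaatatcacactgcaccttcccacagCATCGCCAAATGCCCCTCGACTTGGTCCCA
ENSMUST00000112608: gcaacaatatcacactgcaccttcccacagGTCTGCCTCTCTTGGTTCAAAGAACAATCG
The skipped exon reads as follows, 5′ to 3′.
Exon 3: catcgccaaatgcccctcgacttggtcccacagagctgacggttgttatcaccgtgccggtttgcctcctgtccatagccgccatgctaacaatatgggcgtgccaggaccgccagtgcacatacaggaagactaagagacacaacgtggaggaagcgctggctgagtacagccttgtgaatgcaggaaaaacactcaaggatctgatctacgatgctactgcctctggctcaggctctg

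ENSMUST00000028178, the transcript with exon 3, was at 3.96, 4.15, 4.71, 4.13 and 4.16 RPKM in KO 1, KO 4, KO 7, KO 8 and KO 17. It was at 6.43, 8.38, 7.57, 12.0 and 7.83 RPKM in WT 2, WT 9, WT 19, WT 86 and WT 89. No KO-labelled value reached the lowest WT value, and the log2 change was -0.89 (SE 0.15, limma adjusted p = 0.0306). ENSMUST00000112608, which lacks the exon, was at 5.21, 5.05, 5.32, 3.66 and 4.65 RPKM in the KO group and at 7.78, 8.98, 14.3, 17.0 and 10.5 RPKM in WT, in the same order. Its groups did not overlap either, and its log2 change was -1.16 (SE 0.21, limma adjusted p = 0.0444). The share of all tested transcripts whose groups do not overlap was not computed. In the KO-labelled libraries ENSMUST00000112608 made up 52.9 ± 3.7% of the RPKM of these 2 transcripts, and 57.5 ± 5.1% in WT (SD, n = 5 each). The shares overlapped, from 46.96 to 56.8% and from 51.7 to 65.4%. The transcripts with and without exon 3 also differ in their first exon (288 against 145 bases) and their last (7591 against 309 bases). The share therefore does not measure skipping of exon 3 alone. The short ENSMUST00000154453 was at 0.265 ± 0.306 RPKM against 1.56 ± 1.37 RPKM in WT (limma adjusted p = 0.503).

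Of 149 transcripts of the 46 genes 112 were tested, and these 2 were the ones called, 2 lower and 0 higher. Over all 44475 transcripts 0.452% were called lower and 0.0922% higher by limma. The call of ENSMUST00000028178 held without WT 2 or WT 86 and was lost without any other 1 library (log2 change -0.98 to -0.77, limma adjusted p up to 0.0961). That of ENSMUST00000112608 held without WT 2 and was lost without any other (-1.29 to -1.02, limma adjusted p up to 0.115). The main transcripts of the 3 genes called higher were not called: Tgfb3 ENSMUST00000003687 changed by 0.44 (limma adjusted p = 0.204), Id2 ENSMUST00000020974 by 0.30 (0.549) and Skil ENSMUST00000118470 by 0.28 (0.316). The labels do not say how reads were divided among transcripts. In GENCODE M21 the exons of Acvr1c overlap those of Gm13544 on the opposite strand, which was at 0.219 to 0.894 RPKM, and those of Tgfb3 overlap Gm37804 and Gm48008. Whether strand was used in counting is not given, and without it reads of such partners cannot be told apart.

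**Figure D3:**
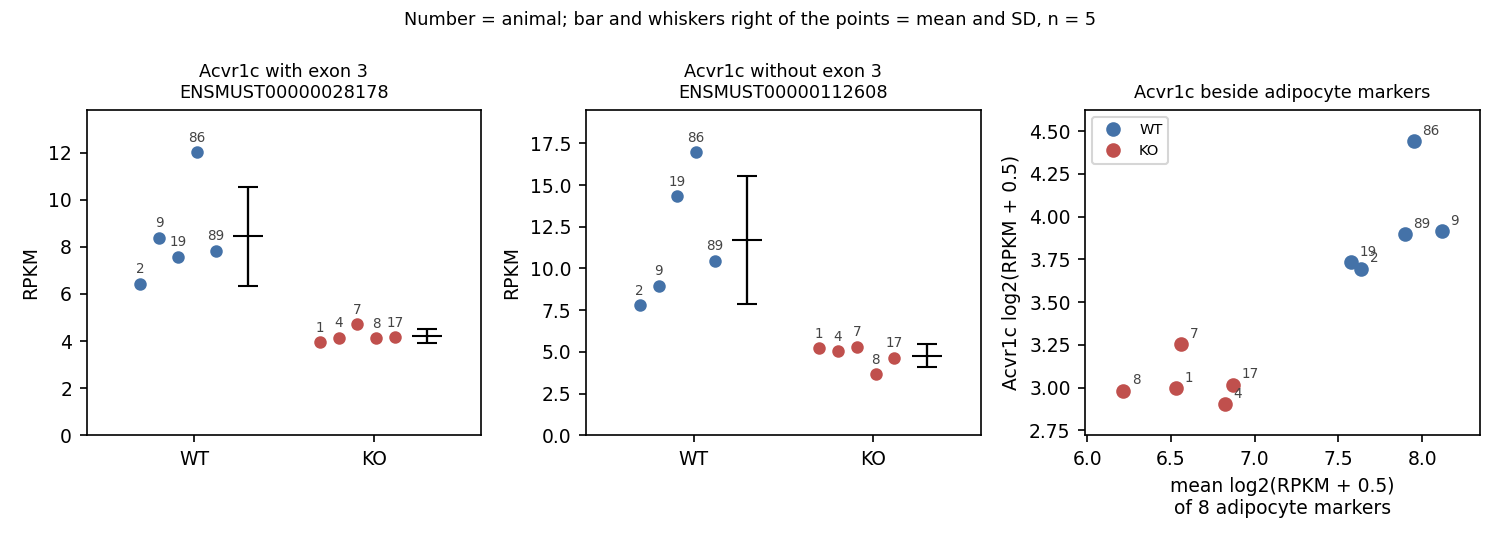
Left and middle, RPKM of the Acvr1c transcripts with and without exon 3 by library, with mean and SD (n = 5). Right, Acvr1c against the mean log2(RPKM + 0.5) of 8 adipocyte markers; KO-labelled libraries (6.22 to 6.87 on the marker axis) lie below and to the left of WT (7.58 to 8.12).

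None of the other 5 tested type I receptor genes was called. Tgfbr1, the TGFb type I receptor, was the most abundant of them, at 23.0, 22.5, 20.4, 20.8 and 20.8 RPKM in KO 1, KO 4, KO 7, KO 8 and KO 17 and at 19.2, 17.4, 19.4, 17.6 and 19.7 RPKM in WT 2, WT 9, WT 19, WT 86 and WT 89. Each KO-labelled value exceeded each WT value, as for 6.96% of all tested genes, but the log2 change of 0.20 missed the threshold (95% interval 0.07 to 0.33, limma adjusted p = 0.0712). Acvr1b, the activin receptor ALK4 that shares ligands with ACVR1C, was at 18.7 ± 2.0 and 17.3 ± 2.2 RPKM (KO-labelled and WT, SD, n = 5 each; log2 change 0.11, 95% interval -0.10 to 0.33). The difference between the changes of Acvr1c and Acvr1b was not tested. Among the BMP type I receptors, Bmpr1a changed by 0.20 (limma adjusted p = 0.106), Acvr1 (ALK2) by -0.11 (0.378) and the endothelial receptor Acvrl1 (ALK1) by 0.03 (0.878). Bmpr1b was under the filter at 0.0914 to 0.255 RPKM. In WT, the mean levels on the RPKM scale ran from Tgfbr1 (18.6) and Acvr1b (17.3) through Acvr1c (15.1), Bmpr1a (15.04) and Acvrl1 (14.3) to Acvr1 (7.66), where the ranges of neighbours in this order overlap except for Acvr1 (6.498 to 8.51), which lies below the others. In the KO-labelled libraries Acvr1c, at 7.70 RPKM, came after Acvrl1 (14.6) and overlapped Acvr1 (7.04).

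Type II receptors, the kinases that activate type I receptors, had no member called. Tgfbr2, the TGFb type II receptor, was the most abundant, at 76.5, 79.7, 76.5, 78.2 and 80.2 RPKM in the KO-labelled group and 70.2, 75.5, 72.8, 64.5 and 70.2 RPKM in WT, in the order given above. These groups did not overlap, with a log2 change of 0.15 (95% interval 0.02 to 0.27, limma adjusted p = 0.139). The BMP receptor Bmpr2 changed by 0.20 (limma adjusted p = 0.198), Acvr2a by 0.17 (0.120) and Acvr2b, at 1.46 to 3.12 RPKM the least abundant, by -0.30 (0.262). Tgfbr3, the coreceptor betaglycan that presents TGFb2 and inhibin, was at 49.9, 54.1, 44.5, 50.6 and 57.9 RPKM in the KO group and 46.1, 51.95, 44.0, 44.3 and 49.8 RPKM in WT. Its groups overlapped, with a log2 change of 0.12 (limma adjusted p = 0.397).

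TGFb ligand genes had 1 of 3 called, Tgfb3, whose product is one of the TGFb isoforms stored in the matrix in latent form. Tgfb3 was at 13.6, 15.8, 11.6, 13.6 and 17.7 RPKM in KO 1, KO 4, KO 7, KO 8 and KO 17, and at 9.59, 10.1, 9.92, 12.4 and 10.02 RPKM in WT 2, WT 9, WT 19, WT 86 and WT 89. The groups overlapped in 1 pair, WT 86 above KO 7. Its log2 change was 0.45 (SE 0.11, limma adjusted p = 0.0444), and the call was lost under median-ratio scaling (0.36, adjusted p = 0.107) and without any 1 library other than KO 7 or WT 86 (0.37 to 0.52, adjusted p up to 0.0881). Tgfb1, the most abundant of the 3 and abundant in immune cells, was at 42.8, 30.96, 48.7, 40.2 and 31.5 RPKM in the KO-labelled group and 43.3, 26.3, 37.8, 33.7 and 31.2 RPKM in WT. Those ranges overlapped in part (log2 change 0.17, limma adjusted p = 0.555). Tgfb2 changed by 0.20 (limma adjusted p = 0.219).

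Latent TGFb binding proteins, which hold TGFb in the matrix, had 0 of 4 called. Ltbp3 was the most abundant, at 62.6, 67.7, 65.5, 65.3 and 65.8 RPKM in the KO-labelled and 55.3, 56.6, 66.3, 69.8 and 59.8 RPKM in the WT libraries, with a log2 change of 0.09 (limma adjusted p = 0.482). The KO-labelled values lay within the WT range. Ltbp2, a family member that does not bind latent TGFb, was at 6.99 to 10.5 RPKM against 10.1 to 13.8 RPKM, with a log2 change of -0.37 (95% interval -0.63 to -0.11, limma adjusted p = 0.0899). It passed the threshold without KO 4 (-0.44, limma adjusted p = 0.0498). Ltbp4 changed by -0.22 (0.240) and Ltbp1 by 0.03 (0.891).

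None of the 7 BMP and GDF ligand genes was called. The most abundant by the mean over all 10 libraries, Gdf10 (BMP3b, a BMP3-like ligand), was at 5.75, 6.32, 4.76, 4.32 and 8.03 RPKM in the KO-labelled group and at 4.30, 5.14, 4.21, 6.23 and 6.73 RPKM in WT, and the groups overlapped (log2 change 0.11, limma adjusted p = 0.734). Bmp6, a BMP also known for iron control in liver, was at 3.77 to 5.40 RPKM against 5.27 to 6.31 RPKM (-0.23, limma adjusted p = 0.142). Bmp3 varied most among the KO-labelled libraries, from 1.36 RPKM in KO 8 to 6.19 RPKM in KO 4 (log2 change -0.34, 95% interval -1.08 to 0.41). The adipogenic ligand genes Bmp4 and Bmp2 changed by 0.13 (limma adjusted p = 0.573) and 0.04 (0.876). Bmp7 was near the filter, at 0.400 to 0.677 RPKM, and changed by -0.06 (0.839). Gdf15, a stress-induced hormone gene, changed by 0.17, with an interval of -0.32 to 0.66.

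Activin and inhibin subunit genes had 0 of 3 called. Inhbb, whose product forms activin B, a ligand of ACVR1C, was at 8.26, 13.1, 10.5, 11.1 and 11.3 RPKM in KO 1, KO 4, KO 7, KO 8 and KO 17 and at 9.35, 13.6, 13.1, 11.8 and 11.1 RPKM in WT 2, WT 9, WT 19, WT 86 and WT 89. The groups overlapped, with a log2 change of -0.12 (95% interval -0.40 to 0.16, limma adjusted p = 0.612). Inhba, the activin A subunit gene, was at 0.574 to 1.56 RPKM and changed by 0.11 (0.776). Inha, the inhibin-specific subunit, was at 1.27 to 2.16 RPKM and changed by -0.02 (0.932).

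**Figure D4:**
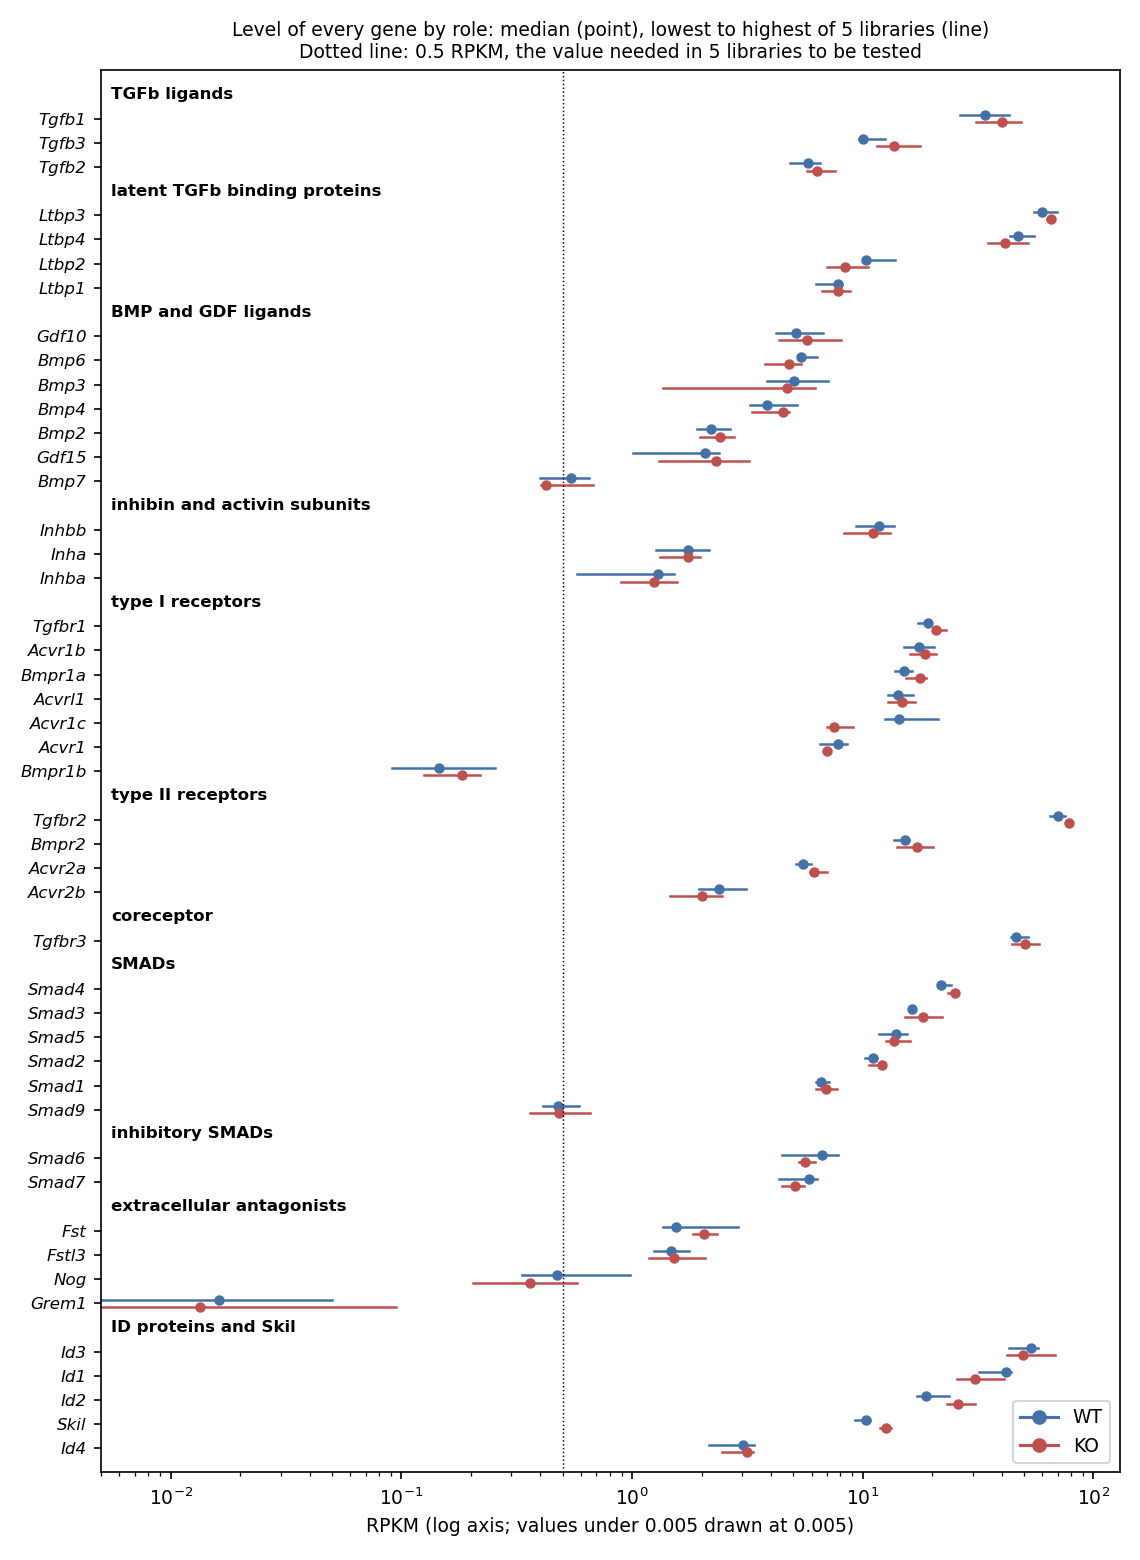
RPKM of all 46 genes by role on a log axis, as the median and the lowest to highest of 5 libraries, WT above KO. Tgfbr2 is the most abundant, at medians of 78.2 and 70.2 RPKM, and the medians of Grem1, Bmpr1b, Nog and Smad9 lie left of the dotted filter line at 0.5 RPKM in both groups.

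The SMAD genes, which relay the receptor signal to the nucleus, changed by 0.01 to 0.16 on the log2 scale, and 0 of 5 tested were called. Smad4, the shared partner and the most abundant, was at 25.7, 25.9, 25.1, 23.3 and 25.2 RPKM in the KO-labelled and 21.8, 23.4, 21.8, 21.6 and 24.0 RPKM in the WT libraries (log2 change 0.15, 95% interval 0.03 to 0.27, limma adjusted p = 0.117). The groups overlapped through KO 8. Smad3, which relays TGFb and activin signals, varied from 15.2 to 22.1 RPKM in the KO-labelled libraries and from 15.9 to 16.6 RPKM in WT (0.16, limma adjusted p = 0.268). Smad2 changed by 0.10, Smad1 by 0.05 and Smad5 by 0.01, with limma adjusted p of 0.371, 0.658 and 0.952, and the latter pair turned to -0.03 and -0.08 after median-ratio scaling. Smad9 was at 0.360 to 0.656 RPKM and under the filter.

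Inhibitory SMADs, which the pathway induces and which block the receptors, had 0 of 2 called. Smad6, which acts mainly against BMP signals, was at 5.28, 5.57, 5.69, 6.23 and 5.60 RPKM in the KO-labelled group and 6.41, 6.68, 7.08, 7.79 and 4.45 RPKM in WT. WT 89 lay below all KO-labelled libraries and the other WT libraries lay above them (log2 change -0.16, limma adjusted p = 0.470). Smad7, which acts against TGFb and BMP signals, changed by -0.13 (0.438).

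Extracellular antagonist genes were low, and 2 of 4 were tested with 0 called. Fst, which encodes the activin trap follistatin, was at 2.06, 2.33, 2.05, 1.84 and 2.24 RPKM in the KO-labelled group and 1.37, 1.545, 1.72, 2.87 and 1.37 RPKM in WT. All KO-labelled values lay above the WT values other than WT 86 (log2 change 0.23, limma adjusted p = 0.401). Fstl3, a related activin trap, changed by 0.09 (0.717). The BMP antagonist genes Nog and Grem1 were under the filter, at 0.204 to 0.979 RPKM and 0 to 0.0952 RPKM. Grem1 had 8 reads over the 5 KO-labelled libraries and 8 over the 5 WT libraries, too few for a difference to be detectable.

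Of the ID genes, direct targets of BMP signals that encode inhibitors of basic helix-loop-helix factors, Id2 was called and Id1, Id3 and Id4 were not. Id2 was at 30.7, 23.2, 25.9, 26.6 and 23.8 RPKM in KO 1, KO 4, KO 7, KO 8 and KO 17 and at 23.6, 17.2, 18.9, 17.1 and 21.02 RPKM in WT 2, WT 9, WT 19, WT 86 and WT 89. The groups overlapped through WT 2, which lay above KO 4. Its log2 change was 0.41 (SE 0.10, limma adjusted p = 0.0481). The call was lost under median-ratio scaling (0.32, adjusted p = 0.206) and without any 1 library other than KO 4 or WT 2 (0.35 to 0.48, adjusted p up to 0.107). Id3, the most abundant, was at 42.2, 68.3, 43.2, 59.3 and 49.7 RPKM in the KO-labelled and 46.9, 55.3, 53.8, 57.5 and 43.1 RPKM in the WT libraries. The WT range lay within the range of the KO group (log2 change 0.02 as deposited and -0.07 after median-ratio scaling, limma adjusted p = 0.958 and 0.807). Id1, the most studied BMP target of the family, changed by -0.26 (0.307) and Id4 by 0.11 (0.671).

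The Id2 sequence before its start is shown because its window holds a GGCGCC motif, given in capitals. It is the portion outside GENCODE M21 exons of the 250 bases before the RefSeq start (GRCm38.p6, minus strand, 5′ to 3′), at chr12:25096254-25096342.
Id2: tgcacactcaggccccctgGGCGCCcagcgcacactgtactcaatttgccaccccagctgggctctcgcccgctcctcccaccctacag
The motif begins 231 bases before the start. Over its 250 bases the window has a GC content of 62.8% and 18 CpG, above the medians of all windows (52.4% and 6). It is a match of letters and no measurement of binding.

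Skil, which encodes SnoN, a corepressor that TGFb induces and that restrains SMADs, was at 12.7, 12.2, 13.2, 12.6 and 11.9 RPKM in KO 1, KO 4, KO 7, KO 8 and KO 17. It was at 9.27, 9.47, 10.6, 10.8 and 10.3 RPKM in WT 2, WT 9, WT 19, WT 86 and WT 89. Here too each KO-labelled value exceeded each WT value, with a log2 change of 0.30 (SE 0.06, 95% interval 0.17 to 0.43, limma adjusted p = 0.0191). Leaving out KO 1 ended the call (0.29, adjusted p = 0.0534) and the other 9 did not, while median-ratio scaling (0.21, adjusted p = 0.143), quantile normalization (0.21, adjusted p = 0.132) and leaving out WT 86 with WT 89 (0.34, adjusted p = 0.0605) ended it. All 3 higher calls of the 46 genes were lost under either scaling, where 0.605% (median-ratio) and 0.875% (quantile) of all genes were called higher. The 1 lower call, Acvr1c, was kept under both, where 2.45% and 2.30% were called lower.

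Other genes of the pathway numbered 146 in 7 lists, and 111 were tested. There were 5 called higher and 2 lower, or 4.50% and 1.80%, close to the 4.00% and 1.95% of all tested genes. Of these calls 3 held with each of the 10 libraries left out in turn and under both scalings. Htra1, a secreted protease that binds and cleaves TGFb family proteins, was at 53.1 to 78.5 RPKM in the KO-labelled and 31.4 to 46.3 RPKM in the WT libraries (log2 change 0.74, SE 0.13, limma adjusted p = 0.0107). Its relative Htra3 went the other way, at 31.8 to 40.4 RPKM against 45.9 to 59.6 RPKM (-0.53, SE 0.10, limma adjusted p = 0.0147). Ctdspl, a small C-terminal domain phosphatase of the family that acts on SMADs, was at 16.5 to 21.5 RPKM against 28.1 to 36.6 RPKM (-0.77, SE 0.09, limma adjusted p = 0.00146). Without WT 86 and WT 89 together, Ctdspl was still called (-0.73, adjusted p = 0.0201), and Htra1 (0.77, adjusted p = 0.0624) and Htra3 (-0.51, adjusted p = 0.0796) were not. With that pair left out, fewer of all tested genes were called, 0.434% higher and 0.838% lower.

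The remaining 4 calls, all higher, were lost under both scalings. Itgav, the integrin subunit that helps release latent TGFb, changed by 0.27 (limma adjusted p = 0.0315), and this list had 1 of 21 called, with the abundant Itgb1 at 0.21 (0.0631) and the proteoglycan Dcn at 0.40 (0.0681). Twsg1, a BMP-binding protein, changed by 0.26 (limma adjusted p = 0.0354), which with Htra1 and Htra3 made 2 higher and 1 lower of 13 other antagonists. Among 26 TGFb and activin response genes 2 were higher, the protease inhibitor Timp1 (0.90, limma adjusted p = 0.0481) and the matrix protein Tgfbi (0.37, 0.0274). With 1 library left out the calls held in 3 of 10 runs for Itgav (without KO 4, KO 17 or WT 2; 0.24 to 0.30 over all 10), in 2 for Twsg1 (WT 2 or WT 9; 0.22 to 0.29), in 4 for Tgfbi (KO 4, KO 7, WT 2 or WT 19; 0.33 to 0.42) and in 1 for Timp1 (WT 19; 0.77 to 1.02).

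No gene passed among 6 other family ligands, 7 other receptors and coreceptors, and 11 BMP response genes. Gdf3, a ligand of ACVR1C made by macrophages in fat, was at 5.91 to 10.8 RPKM in the KO-labelled and 3.32 to 7.68 RPKM in the WT libraries (log2 change 0.46, limma adjusted p = 0.262). Bmp1, a protease named with the BMPs that matures procollagen, changed by 0.21 (0.141). Eng, the endothelial coreceptor endoglin, changed by -0.06 (0.743) and Vasn, a TGFb-binding membrane protein, by 0.22 (0.300). The abundant BMP response genes Klf2 and Zfp423 changed by 0.02 (0.956) and -0.13 (0.455). Ctdspl was the 1 call among 27 SMAD cofactors and turnover genes, where Ski, the relative of Skil, changed by 0.01 as deposited and -0.09 after median-ratio scaling (0.961 and 0.427) and Ctdsp2, a relative of Ctdspl, by -0.04 (0.753). The BMP response list had a median log2 change of -0.02, the TGFb and activin response list 0.17, and all tested genes 0.09. After median-ratio scaling these medians were -0.11, 0.09 and 0.01.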

How the data were processed

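The authors deposited one gene table and one transcript table of RPKM values. The submitters' processing notes name bcl2fastq, STAR 2.0.4b1, Subread and featureCounts 1.4.52; no source used here gives the build, the annotation or whether strand was counted, and the file name is the only source for the transcript unit. RPKM divides by each library's total, so a large fall of abundant genes can raise the values of all others. Repeated rows were used once. Whole reads were recovered for 100% of 25122 genes above 0 in at least 3 libraries (tolerance 0.001 reads) and served for depth and a voom fit.

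Log2(RPKM + 0.5) of genes with at least 0.5 RPKM in at least 5 of 10 libraries was fitted with limma 3.58.1 (R 4.3.3, eBayes with trend and robust, statmod 1.5.0), 2-sided, with Benjamini-Hochberg adjustment over all 17038 genes (44475 transcripts); calls need an adjusted p under 0.05. All adjusted p-values and values after them in brackets are limma's. Fold changes are on that log2 scale and understate the change of low genes. Med19 was compared over 252 assignments of libraries. On simulated reads (17061 genes tested) recovery was 68.5% at 1.5-fold and 85.1% at 2-fold, with 8 of 16865 unchanged genes called.

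The members and lists were chosen with earlier results of these data known. Values by library are given for members called or changed by at least 0.5, and for the most abundant of each role; up to 4 called genes per other list are named, or up to 2 of the most abundant where fewer than 2 were called. Alternatives were other pseudocounts, filters, scalings and variance models, voom, and leaving out libraries.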

Additional observations from a re-analysis of the deposited data

Results flagged for a closer look

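In each group of 5 libraries the highest and lowest value of each gene was checked for a gap to its neighbour that exceeds Dixon's critical value of 0.71, over 126 groups, where chance flags about 1 group in 20. Of these, 7 were flagged. WT 86 was far above the other WT libraries for Acvr1c (21.2 RPKM, the others 12.5 to 14.6), Tgfb3 (12.4 RPKM, the others 9.59 to 10.1), Bmp6 (6.31 RPKM, the others 5.27 to 5.38) and Fst (2.87 RPKM, the others 1.37 to 1.72). Without WT 86 the log2 change of Acvr1c was -0.78 (limma adjusted p = 0.00134). KO 1 was far above the other KO-labelled libraries for Timp1 (150.5 RPKM, the others 90.04 to 104.0) and Grem1 (0.0952 RPKM, the others 0 to 0.0157). WT 19 was far above the other WT libraries for Vasn (22.0 RPKM, the others 18.0 to 18.9).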

How the results depend on the processing

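No paired analysis was possible because the groups share no replicate numbers. Members called higher, 3 as reported, were 1 with eBayes without trend or robust (2.95% of all genes called higher) and 1 with no filter (0.995%). They were 0 under either scaling and without WT 86 and WT 89 (0.434%). They were 0 to 2 with 1 library left out, where Skil was called in 9 of 10 runs and Tgfb3 and Id2 in 2 each. Members called lower, 1 as reported, were 1 to 2. With median-ratio scaling and 1 library left out, chosen after seeing the data, they were 0 higher throughout and 1 to 2 lower. Other pathway genes called higher, 5 as reported, were 1 with median-ratio scaling, 2 with quantile normalization and with no filter, 8 with voom (5.01% of all genes), 0 without WT 86 and WT 89, and 1 to 5 with 1 library left out; those called lower, 2 as reported, were 1 without WT 86 and WT 89. Transcripts called lower, 2 as reported, were 1 with eBayes without trend or robust, 0 with no filter and without WT 86 and WT 89, and 0 to 2 with 1 library left out. Log2 changes that turned were all of uncalled genes. With median-ratio and quantile scaling these were Ltbp1 (-0.059 and -0.044), Bmp2 (-0.039 and -0.017), Acvrl1 (-0.059 and -0.049), Smad1 (-0.032 and -0.011), Smad5 (-0.077 and -0.065), Id3 (-0.074 and -0.067), Ski (-0.085 and -0.077) and Klf2 (-0.075 and -0.074). Without WT 86 and WT 89 they were Gdf15 (-0.053), Id3 (-0.0069), Ski (-0.0094), Ctdsp2 (0.019) and Klf2 (-0.0082). With 1 library left out the change ran from -0.034 to 0.076 for Ltbp1, -0.018 to 0.085 for Bmp2, -2.155e-04 to 0.206 for Gdf10, -0.111 to 0.045 for Inha, -0.027 to 0.202 for Inhba, -0.022 to 0.081 for Acvrl1, -0.042 to 0.053 for Smad5, -0.083 to 0.089 for Id3, -0.114 to 8.656e-04 for Eng, -0.0060 to 0.023 for Ski and -0.059 to 0.108 for Klf2. The Med19 difference, 0.0931 RPKM as reported, was -0.312 RPKM with median-ratio scaling and -0.205 to 0.398 RPKM with 1 library left out. The causes were not tested. Read counts limit the lowest genes: Bmpr1b, Smad9, Nog and Grem1 had at most 54 reads in a library.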
